A study of Mus musculus with 8 samples.

Results

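The EphB receptors and the B-type ephrins are described here in sorted mammary tumor cells. All genes of these names in the deposited table were taken, which gave 8 of its 53697 genes: the 5 receptors Ephb1, Ephb2, Ephb3, Ephb4 and Ephb6 and the 3 ligands Efnb1, Efnb2 and Efnb3. All 8 passed the filter on low counts, as did 18322 genes in total. They were chosen by gene name, and the family was selected on measured values, its RNA levels in Dll1+ against Dll1- cells and between the reporter lines in these same libraries, so the values and adjusted p values for its members are a description and not independent evidence.

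RNA was sequenced from tumor cells of 4 mice. Each mouse carried the MMTV-PyMT transgene, in which a viral promoter active in mammary epithelium drives the polyoma middle T antigen, and a fluorescent reporter of Dll1, a Notch ligand. Tumors were digested, CD45+, CD31+ and Ter119+ cells were removed, and reporter fluorescence was used to sort the remaining lineage-negative cells into a Dll1+ and a Dll1- fraction. Both fractions came from the same tumor-bearing mouse, so the 8 libraries formed 4 pairs. There were 2 PyMT-Dll1GFP mice, in which GFP-IRES-CreERT2 is knocked in at Dll1, and 2 PyMT-Dll1mCh mice, which carry a BAC-based mCherry reporter of Dll1. They are called GFP mouse 1 and 2 and mCh mouse 1 and 2. No group was treated, and no library came from a mouse without the PyMT transgene. The age of these mice is not given in the sources used here. Since only these 2 mice represent each reporter line, the line, the mice and their handling cannot be told apart.

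Eph receptors are receptor tyrosine kinases, and ephrins are their membrane-bound ligands on neighboring cells. Binding sends a forward signal into the receptor-bearing cell and, through the cytoplasmic tail of B-type ephrins, a reverse signal into the ligand-bearing cell. The system sorts and spaces cells, guides axons and vessels, and holds apart the cell layers of epithelia, and in the mammary gland EphB4 and ephrin-B2 are known to be expressed by epithelium. EphB6 differs from the other members in that it has no active kinase.

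Library depth was 27301396 to 123907626 counts (median 38191068). Dll1, which checks the sort, was 7.46-fold higher in Dll1+ cells over the 4 mice, 10.7-fold in the GFP mice and 5.40-fold in the mCh mice. All 8 luminal epithelial markers were detected in every library, with a summed level of 5609 to 9254 CPM (counts scaled to library size after TMM normalization). The mCh Dll1- libraries stood apart. Their 8 fibroblast markers summed to 7484 and 21610 CPM, against 2994 and 3251 CPM in mCh Dll1+ cells and 990 to 1226 CPM in the GFP libraries. The 12 endothelial markers summed to 290 and 640 CPM in mCh Dll1- cells, 161 and 161 CPM in mCh Dll1+ cells and 80.0 to 87.0 CPM in the GFP libraries, and the 8 pericyte markers to 625 and 796, 194 and 202, and 157 to 199 CPM. No marker of these 3 lists was at 0 in any library. Leukocyte markers summed to 240 to 653 CPM and erythroid markers to 5.65 to 174 CPM. Most of the pericyte sum in the GFP libraries was Notch3, at 129 to 163 CPM, and Notch3 was at 102 to 138 CPM in the mCh libraries. The other 7 pericyte markers, separated out after the values were seen, summed to 497 and 658 CPM in mCh Dll1- cells, 91.9 and 91.9 CPM in mCh Dll1+ cells and 28.4 to 36.7 CPM in the GFP libraries. The sum of the 8 basal epithelial markers was also higher in the mCh than in the GFP mice, but it was higher in the Dll1+ than in the Dll1- library of each mouse, at 391 against 175 and 219 against 138 CPM in the GFP mice and 1367 against 379 and 1504 against 691 CPM in the mCh mice. In mCh mouse 2 the basal markers Acta2, Myh11 and Mylk were nevertheless lower in Dll1+ cells, by log2 differences of -0.31, -0.41 and -0.94. In such bulk libraries, fewer cells of a type and less RNA per cell cannot be told apart.

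The stretches before the start sites of 4 members are shown because they set the receptor and the ligand with the largest fold changes upward in Dll1+ cells, Ephb6 and Efnb2, beside the receptor that was lower, Ephb2, and the ligand with no detected difference, Efnb1. Each is the 250 bases upstream of the RefSeq start site on GRCm38.p6, written on the strand of the gene. Capitals mark the GC box (GGGCGG), the CCAAT box (CCAAT) and the core of the RBPJ site (TGGGAA), on either strand, and no marked motif overlaps another. RBPJ is the DNA-binding protein through which Notch receptors act.
Ephb6, chr6:41605261-41605510, strand +: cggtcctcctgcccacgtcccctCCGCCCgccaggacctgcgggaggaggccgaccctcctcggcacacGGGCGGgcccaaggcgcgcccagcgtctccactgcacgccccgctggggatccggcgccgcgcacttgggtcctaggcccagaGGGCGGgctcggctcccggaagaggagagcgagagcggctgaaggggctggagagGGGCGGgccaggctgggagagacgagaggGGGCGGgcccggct
Efnb2, chr8:8661243-8661492, strand -: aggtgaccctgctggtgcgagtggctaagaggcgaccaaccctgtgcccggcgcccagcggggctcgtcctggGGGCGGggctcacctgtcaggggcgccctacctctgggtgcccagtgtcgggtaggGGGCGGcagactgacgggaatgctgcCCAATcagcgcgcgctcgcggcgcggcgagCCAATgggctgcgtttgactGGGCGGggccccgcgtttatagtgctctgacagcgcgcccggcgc
Ephb2, chr4:136836013-136836262, strand -: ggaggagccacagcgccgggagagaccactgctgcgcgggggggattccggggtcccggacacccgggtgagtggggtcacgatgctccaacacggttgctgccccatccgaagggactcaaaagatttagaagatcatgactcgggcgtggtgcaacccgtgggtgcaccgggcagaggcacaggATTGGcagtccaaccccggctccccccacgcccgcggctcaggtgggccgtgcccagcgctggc
Efnb1, chrX:99135811-99136060, strand +: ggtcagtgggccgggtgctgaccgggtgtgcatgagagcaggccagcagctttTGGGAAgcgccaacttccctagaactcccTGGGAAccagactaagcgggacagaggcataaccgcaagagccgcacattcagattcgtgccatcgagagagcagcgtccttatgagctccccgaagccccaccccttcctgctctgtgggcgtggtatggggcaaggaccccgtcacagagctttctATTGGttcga
The Ephb6 stretch held 5 GC boxes, the Efnb2 stretch 3 GC boxes and 2 CCAAT boxes, the Ephb2 stretch 1 CCAAT box and no GC box, and the Efnb1 stretch 2 RBPJ cores, 1 CCAAT box and no GC box. Among the other members with an entry, Ephb4 had 4 GC boxes and 1 CCAAT box, Ephb3 had 2 GC boxes, and Ephb1 had 2 CCAAT boxes. Of all 32851 promoter stretches of this length, 32.7% held a GC box, 33.8% a CCAAT box, 21.6% an RBPJ core and 66.2% the E-box letters CANNTG, which were also searched for and were present in Ephb2, Ephb3, Ephb4, Ephb6 and Efnb2. Of the 7 members with an entry, Ephb3, Ephb4, Ephb6 and Efnb2 held a GC box and Efnb1 alone held the RBPJ core. Efnb3 had no entry. GC content was 76.8% for Ephb6, 72% for Efnb2, 68.4% for Ephb2 and 60% for Efnb1, against a median of 52.4% over all promoters. Ephb6 and Efnb2 each held 27 CpG dinucleotides, where the median promoter held 6. These matches describe the letters of the reference sequence and were not tested for any role.

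Levels of different genes were compared as CPM per kb of exon. Ephb4, a receptor for ephrin-B2, was the most abundant member, at a median of 31.0 CPM per kb over the 8 libraries, a level above that of 91.4% of tested genes. Ephb6 at 12.9 and Ephb3 at 11.6 CPM per kb followed, then the ligands Efnb1 at 5.79 and Efnb2 at 2.27 CPM per kb. Efnb3 at 0.41, Ephb2 at 0.30 and Ephb1 at 0.15 CPM per kb were low, in the range of 8 to 929 counts per library. The lowest Ephb4 library, at 28.9 CPM per kb, lay above the highest Ephb6 library, at 22.0, whereas the ranges of Ephb6 (7.68 to 22.0) and Ephb3 (8.75 to 13.7) overlapped. Efnb1 (3.62 to 8.19) and Efnb2 (1.12 to 3.91) overlapped only where the lowest Efnb1 library, GFP mouse 2 Dll1+, met the highest Efnb2 library, GFP mouse 1 Dll1+.

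Summed per kb, the receptors exceeded the B-type ephrins in every library, by a ratio of 4.83 to 8.94 (median 6.59). Ephb4 made up 49.7% to 61.0% of the EphB sum, Ephb3 17.5% to 23.0% and Ephb6 15.6% to 30.1%. Within each mouse the Ephb6 share was larger in Dll1+ than in Dll1- cells: it was 23.7% against 15.6% and 22.4% against 17.2% in the GFP mice, and 29.3% against 20.9% and 30.1% against 22.0% in the mCh mice. Among the ligands, the Efnb2 share was likewise larger in the Dll1+ cells of each mouse, at 38.2% against 25.2% and 43.2% against 21.8% in the GFP mice and 19.4% against 15.9% and 28.0% against 23.1% in the mCh mice. EphB receptors made up 38.9% to 58.4% of all Eph receptor mRNA per kb, and B-type ephrins 13.0% to 23.1% of all ephrin mRNA.

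**Figure D1:**
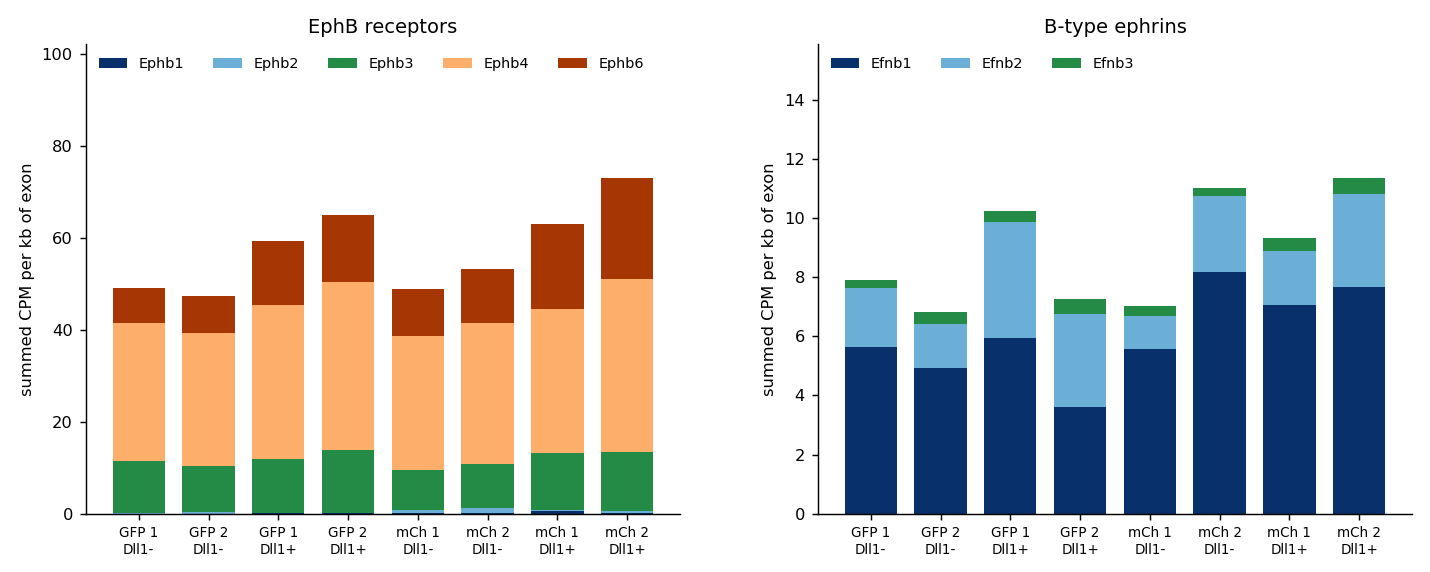
Summed level of the 5 EphB receptors (left) and the 3 B-type ephrins (right) in CPM per kb of exon in each of the 8 libraries, with each stacked segment 1 gene. Ephb4 is the largest receptor segment in every library, and the Ephb6 and Efnb2 segments are taller in the Dll1+ than in the Dll1- library of each mouse.

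The main question was how the members differed between Dll1+ and Dll1- cells of the same tumors. Over the 4 mice, Ephb6, Ephb3 and Efnb2 were higher in Dll1+ cells and Ephb2 was lower. Ephb6 rose 1.83-fold, Efnb2 1.69-fold and Ephb3 1.28-fold, and Ephb2 was 2.28-fold lower. These 4 of 8 members passed an adjusted p of 0.05 (edgeR quasi-likelihood test with the mouse as a block, Benjamini-Hochberg adjustment over 18322 genes), where 14.0% of all genes passed, 6.98% higher and 7.04% lower. The median log2 fold change was 0.44 over the 8 members and 0.00 over all genes tested. Ephb3, Ephb4, Ephb6, Efnb2 and Efnb3 were higher in the Dll1+ library of all 4 mice, as were 21.4% of genes tested, and Ephb2 was lower in all 4, as were 19.9%. All 4 Dll1+ libraries lay above all 4 Dll1- libraries for Ephb3, Ephb4 and Ephb6, which held for 2.74% of genes tested.

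**Figure D2:**
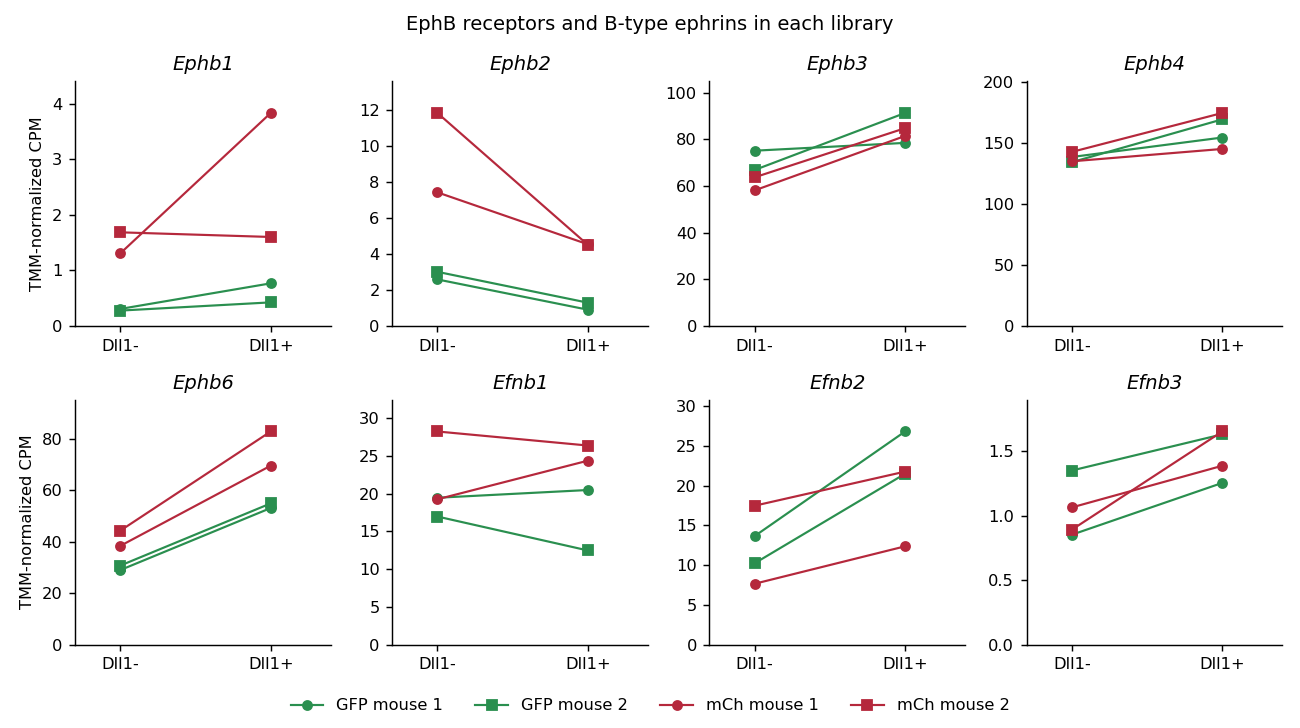
TMM-normalized CPM of each member in the 8 libraries, with a line joining the Dll1- and Dll1+ library of each mouse (green, GFP mice; red, mCh mice). The lines for Ephb6 rise alike in the 4 mice, those for Ephb2 fall in all 4 from 2 separate starting levels, and those for Efnb1 go up in 2 mice and down in 2.

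Among the receptors, Ephb6 (chr6:41605482-41620509, strand +) was at 29.0 and 30.7 CPM in the Dll1- cells of GFP mice 1 and 2 and at 53.1 and 54.9 CPM in their Dll1+ cells. In mCh mice 1 and 2 it was at 38.4 and 44.3 CPM in Dll1- cells and at 69.6 and 82.9 CPM in Dll1+ cells. By mean level the groups ran mCh Dll1+, GFP Dll1+, mCh Dll1-, GFP Dll1- from high to low. The log2 difference within a mouse was 0.87, 0.84, 0.86 and 0.90 in GFP mice 1 and 2 and mCh mice 1 and 2. The fitted log2 fold change was 0.87 ± 0.05 (SE, 4 mice; adjusted p = 0.00534), with 0.86 ± 0.08 in the GFP mice (adjusted p = 0.00408) and 0.88 ± 0.08 in the mCh mice (adjusted p = 0.00705). The difference between the reporter lines was -0.02, with a 95% interval of -0.29 to 0.24 on the log2 scale.

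Ephb2 (chr4:136647539-136835988, strand -), a receptor known for sorting intestinal epithelial cells along the crypt, ran in the opposite direction at a much lower level. It was at 2.59 and 3.02 CPM in the Dll1- cells of the GFP mice and at 0.907 and 1.30 CPM in their Dll1+ cells, from 26 to 87 counts. In the mCh mice it was at 7.44 and 11.9 CPM in Dll1- cells and at 4.55 and 4.52 CPM in Dll1+ cells, from 251 to 929 counts. By mean level the groups ran mCh Dll1-, mCh Dll1+, GFP Dll1-, GFP Dll1+ from high to low. Both mCh Dll1+ libraries held more Ephb2 than both GFP Dll1- libraries. The log2 fold change was -1.19 ± 0.18 over the 4 mice (adjusted p = 0.0148), -1.35 ± 0.27 in the GFP mice (adjusted p = 0.0307) and -1.05 ± 0.23 in the mCh mice (adjusted p = 0.0383).

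The stromal markers moved with Ephb2 in the mCh mice. From Dll1- to Dll1+ cells, the fibroblast sum went from 7484 to 2994 CPM in mCh mouse 1 and from 21610 to 3251 CPM in mCh mouse 2, the pericyte sum from 625 to 202 and from 796 to 194 CPM, and the endothelial sum from 290 to 161 and from 640 to 161 CPM. In the GFP mice the same sums differed little between the fractions, at 1074 and 990 and at 1226 and 1140 CPM for fibroblast markers, 181 and 199 and 157 and 193 CPM for pericyte markers, and 80.0 and 87.0 and 83.7 and 81.1 CPM for endothelial markers. Fitted alone in edgeR, the GFP libraries gave an Ephb2 log2 fold change of -1.34 (adjusted p = 0.0292). The mCh libraries fitted alone gave -1.07 (adjusted p = 0.0999, unadjusted p = 0.0109), in a fit where edgeR called 0 of all genes. The part of stromal cells in the Ephb2 difference was not tested.

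**Figure D3:**
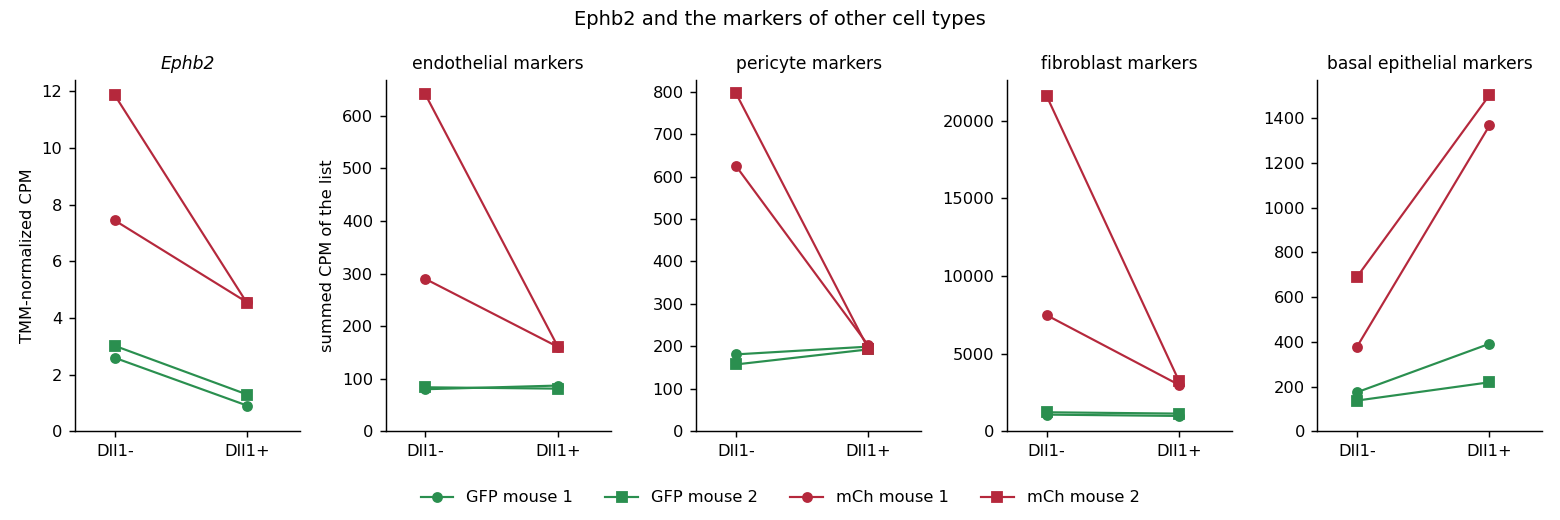
Ephb2 in CPM (left panel) and the summed CPM of 4 marker lists in the Dll1- and Dll1+ library of each mouse (green, GFP mice; red, mCh mice). The endothelial, pericyte and fibroblast sums fall steeply in the mCh mice and are nearly level in the GFP mice. Ephb2 is lower in the Dll1+ library of all 4 mice.

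Ephb3 (chr16:21204755-21223305, strand +) was at 75.1, 66.8, 58.1 and 63.7 CPM in the Dll1- cells of GFP mice 1 and 2 and mCh mice 1 and 2, and at 78.4, 91.2, 81.4 and 84.7 CPM in their Dll1+ cells. The highest Dll1- library and the lowest Dll1+ library were those of GFP mouse 1, where the log2 difference was only 0.06, against 0.41 to 0.49 in the other mice. The log2 fold change was 0.35 ± 0.08 over the 4 mice (adjusted p = 0.0435), 0.45 ± 0.10 in the mCh mice (adjusted p = 0.0432) and 0.26 ± 0.11 in the GFP mice (adjusted p = 0.185).

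Ephb4 (chr5:137350109-137378669, strand +) was at 139, 134, 135 and 143 CPM in Dll1- cells and at 154, 169, 145 and 175 CPM in Dll1+ cells of the same mice. The groups did not overlap, but the gap was small, between 143 CPM in Dll1- cells and 145 CPM in Dll1+ cells, and the log2 fold change of 0.22 ± 0.06 over the 4 mice did not pass (adjusted p = 0.0676). Its 95% interval was 0.07 to 0.38. Ephb4 overlaps the antisense gene Zan by 33 exonic bases.

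Ephb1 (chr9:101922128-102354693, strand -) was near the lower end of detection in the GFP mice, at 0.307 and 0.277 CPM in Dll1- cells (9 and 8 counts) and 0.767 and 0.425 CPM in Dll1+ cells (22 and 19 counts). In the mCh mice it was at 1.31 and 1.68 CPM in Dll1- cells and at 3.83 and 1.60 CPM in Dll1+ cells, so mCh mouse 1 Dll1+ stood alone as the highest library and mCh mouse 2 showed no rise. The log2 fold change of 0.85 ± 0.34 over the 4 mice did not pass (adjusted p = 0.147). Ephb1 shares 152 exonic bases with the antisense gene Gm26846.

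Among the ligands, Efnb2 (chr8:8617434-8661242, strand -), the partner of EphB4 in artery and vein formation, was at 13.6 and 10.2 CPM in the Dll1- cells of the GFP mice and at 26.8 and 21.5 CPM in their Dll1+ cells. It was at 7.65 and 17.5 CPM in the Dll1- cells of the mCh mice and at 12.4 and 21.8 CPM in their Dll1+ cells. The fractions overlapped across mice because mCh mouse 1 was low in both, although Dll1+ exceeded Dll1- within every mouse, by a log2 difference of 0.97, 1.07, 0.69 and 0.32. The log2 fold change was 0.76 ± 0.14 over the 4 mice (adjusted p = 0.0226), 1.02 ± 0.13 in the GFP mice (adjusted p = 0.00924) and 0.51 ± 0.13 in the mCh mice (adjusted p = 0.0548). The GFP effect exceeded the mCh effect by 0.52 on the log2 scale, with a 95% interval of 0.07 to 0.96 (adjusted p = 0.314 over all genes).

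Efnb1 (chrX:99136130-99148991, strand +), an X-linked ligand known for its role in craniofacial development, was at 19.5, 17.0, 19.3 and 28.3 CPM in the Dll1- cells of GFP mice 1 and 2 and mCh mice 1 and 2, and at 20.5, 12.5, 24.4 and 26.4 CPM in their Dll1+ cells. It was higher in the Dll1+ library in 2 mice and lower in 2, with a log2 fold change of -0.03 ± 0.13 (adjusted p = 0.901) and a 95% interval of -0.35 to 0.29. Efnb3 (chr11:69554092-69560205, strand -), a ligand best known in the nervous system, was at 0.853, 1.35, 1.07 and 0.892 CPM in Dll1- cells and at 1.26, 1.63, 1.39 and 1.66 CPM in Dll1+ cells of the same mice, from 25 to 133 counts. Each mouse had more Efnb3 in Dll1+ cells, but the fractions overlapped and the log2 fold change of 0.52 ± 0.20 did not pass (adjusted p = 0.144).

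By reporter line, 3 members passed in the GFP mice (Ephb6, Efnb2 and Ephb2), where 9.13% of genes passed, and 3 in the mCh mice (Ephb6, Ephb3 and Ephb2), where 11.8% passed. The test of the difference between the lines called 0 of 8 members in edgeR, with Efnb2 alone under an unadjusted p of 0.05, and it called 0.0710% of all genes. DESeq2 also called 0 members, with an unadjusted p of 0.0559 for Efnb2, and it called 540 of all genes. An Efnb2 or Ephb3 change in 1 line only was therefore not shown. Leaving out GFP mouse 1, GFP mouse 2, mCh mouse 1 or mCh mouse 2 left 2, 1, 2 and 3 of the 4 called members over the 4 mice, and only Ephb6 passed in each of these fits. The same fits called 416, 774, 398 and 2377 of all genes, against 2568 with all 4 mice.

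**Figure D4:**
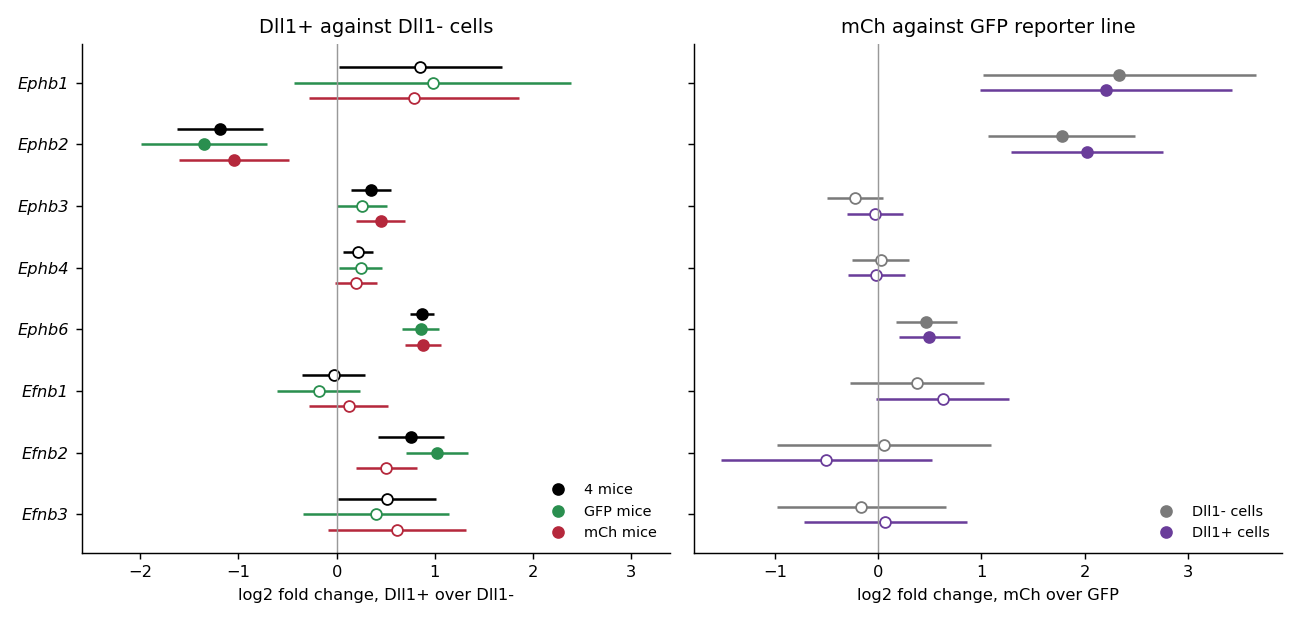
Log2 fold change of each member with its 95% interval, Dll1+ over Dll1- cells on the left (black, 4 mice; green, GFP mice; red, mCh mice) and mCh over GFP mice on the right (grey, Dll1- cells; purple, Dll1+ cells), with filled points at an adjusted p under 0.05. Ephb6 has the narrowest intervals on the left, at 0.87 over the 4 mice, and Ephb1 and Ephb2 lie farthest to the right in the reporter comparison.

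The reporter lines were then compared within each fraction, with 2 mice per line. Dll1 itself was 3.98-fold higher in the mCh mice in Dll1- cells (edgeR, adjusted p = 0.00724). In Dll1+ cells it was 2.01-fold higher and did not pass (adjusted p = 0.0616). The part of this Dll1 difference in those of the members was not tested. Ephb1, Ephb2 and Ephb6 were higher in the mCh than in the GFP mice in both fractions, while Ephb3, Ephb4 and the 3 ligands did not pass. Ephb2 was 3.43-fold higher in Dll1- cells (log2 fold change 1.78 ± 0.30, adjusted p = 0.00563) and 4.07-fold higher in Dll1+ cells (2.02 ± 0.31, adjusted p = 0.00669). Ephb1 was 5.04-fold higher in Dll1- cells (2.33 ± 0.56, adjusted p = 0.0179) and 4.63-fold higher in Dll1+ cells (2.21 ± 0.51, adjusted p = 0.0206). Ephb6 was 1.38-fold and 1.41-fold higher (adjusted p = 0.0256 and 0.0250). Of all genes, 36.6% passed in Dll1- cells, 18.7% as higher in the mCh mice, and 30.6% passed in Dll1+ cells, 15.2% as higher. Every mCh library lay above every GFP library for Ephb1 and Ephb2, as it did for 21.5% of genes tested.

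Markers of other cells differed in the same comparison. In Dll1- cells, 12 of 12 endothelial, 7 of 8 pericyte, 8 of 8 fibroblast, 7 of 8 tested leukocyte, 3 of 4 tested erythroid and 4 of 8 basal epithelial markers were higher in the mCh mice, with 1 basal marker lower. In Dll1+ cells the counts were 5, 5, 4, 4, 3 and 6, with 1 pericyte marker lower. Their part in the Ephb1, Ephb2 and Ephb6 differences was not tested. Efnb1 was higher in the mCh mice by 0.63 ± 0.27 in Dll1+ cells (adjusted p = 0.122), and its 95% interval was -0.02 to 1.27. For Ephb4 the interval was -0.25 to 0.30 in Dll1- and -0.29 to 0.26 in Dll1+ cells. No member passed in either fraction without GFP mouse 1 or without GFP mouse 2, when edgeR called 0 of all genes, with 4492 to 5587 at an unadjusted p under 0.05.

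The members did not share a pattern across the 8 libraries. Pearson correlations of log2 CPM, which are descriptive because libraries of 1 mouse share their source, were 0.81 between Ephb3 and Ephb4, 0.79 between Ephb4 and Efnb2 and 0.78 between Ephb4 and Ephb6. Ephb2 ran against Ephb3 at -0.63, and Efnb1 went with Ephb1 at 0.71. Ephb2 and Ephb6 were at -0.04. They changed in opposite directions between the fractions of every mouse, and both were higher in the mCh mice. Among all other tested genes, the pattern most like Ephb6 was that of Ifit1, an interferon-induced gene, at 0.98, followed by Dll1 at 0.98 and the histone gene H3f3b at 0.98. Ephb1 was most like Nfkbie, which encodes an inhibitor of NF-kB, at 0.99, then Acta2, smooth muscle actin and one of the basal markers, at 0.99, and Plcxd1 at 0.99. Ephb2 was most like Mospd4, Cdc25b and Gpr173 (0.99, 0.98 and 0.98), Efnb2 like Tnfrsf25 and Serpinb8 (0.98 each), and Ephb3 like Rnf13, Baiap2 and Fut9 (0.97, 0.96 and 0.96). Ephb4 was most like Ghitm, Lypd6 and Srsf12 (0.97, 0.96 and 0.95), Efnb1 like Ric3, Gm10566 and Strn4 (0.97, 0.96 and 0.95), and Efnb3 like Gm21988, Rundc1 and Prkra (0.97, 0.94 and 0.94), all over 8 libraries. These genes were picked for the highest correlation among all tested genes, so high values follow in part from that choice. Shared regulation was not tested.

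The rest of the Eph system was read from lists of pathway genes. Of 9 EphA receptors, 6 were tested. Over the 4 mice 3 rose in Dll1+ cells and none fell, where 14.0% of all genes passed. Epha2, a receptor often studied in breast cancer, rose by a log2 fold change of 0.76 ± 0.11 (adjusted p = 0.0122), Epha5 by 1.25 ± 0.22 (adjusted p = 0.0211) and Epha7 by 0.47 ± 0.11 (adjusted p = 0.0426). Of the 5 A-type ephrins, which attach to the membrane by a lipid anchor, Efna5 rose by 0.64 ± 0.13 (adjusted p = 0.0322). The other 4 did not pass, against the same 14.0% of all genes that passed. The median log2 fold change was 0.38 for the tested EphA receptors and 0.09 for the A-type ephrins.

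By reporter line, Epha2 rose in the GFP mice (0.96 ± 0.10, adjusted p = 0.00530) and in the mCh mice (0.56 ± 0.10, adjusted p = 0.0225), and the mCh mice added Epha1 (0.50 ± 0.09, adjusted p = 0.0251) and Efna5 (0.81 ± 0.16, adjusted p = 0.0332). Epha4 went in opposite directions. It was at 22.2 and 13.0 CPM in the Dll1- cells of GFP mice 1 and 2 and at 13.0 and 8.37 CPM in their Dll1+ cells, but at 10.2 and 15.5 CPM in the Dll1- cells of mCh mice 1 and 2 and at 15.8 and 20.6 CPM in their Dll1+ cells. It fell in the GFP mice (-0.71 ± 0.12, adjusted p = 0.0212) and rose in the mCh mice (0.52 ± 0.12, adjusted p = 0.0415). The test of that difference gave -1.23 on the log2 scale and did not pass over all genes (adjusted p = 0.0762).

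Of 28 genes that carry the forward signal, 4 rose over the 4 mice and none fell, where 14.0% of all genes passed, and the median log2 fold change was 0.04. They were Pak1, a kinase downstream of Rac and Cdc42 (0.47 ± 0.05, adjusted p = 0.00769), Vav2, an exchange factor that binds active Eph receptors (0.35 ± 0.05, adjusted p = 0.0128), the adaptor Nck2 (0.41 ± 0.07, adjusted p = 0.0171) and Rasa1, the GTPase-activating protein for Ras (0.32 ± 0.05, adjusted p = 0.0196). Pak1, Vav2 and Nck2 also passed in each reporter line. In the GFP mice the exchange factor gene Kalrn fell (-0.87 ± 0.19, adjusted p = 0.0439), and in the mCh mice Rasa1 rose (0.34 ± 0.08, adjusted p = 0.0430) and Arhgef15, an exchange factor gene expressed in endothelium, fell (-1.19 ± 0.25, adjusted p = 0.0348) together with the endothelial sum given above.

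For the reverse signal, 7 of 8 genes for partners of the ephrin-B tail were tested over the 4 mice, where 14.0% of all genes passed. Nck2, which is also on the forward list, rose, and Rgs3, which binds ephrin-B through a PDZ domain and acts on G proteins, fell. Rgs3 was at 45.5, 35.0, 62.6 and 50.0 CPM in the Dll1- cells of GFP mice 1 and 2 and mCh mice 1 and 2, and at 27.3, 24.6, 48.5 and 28.5 CPM in their Dll1+ cells. It was lower in the Dll1+ library of each mouse although the fractions overlapped across mice, and the log2 fold change was -0.61 ± 0.09 (adjusted p = 0.0137), -0.62 ± 0.13 in the GFP mice and -0.59 ± 0.13 in the mCh mice. Of 8 genes for proteases that cleave ephrins or Eph receptors, 0 passed in edgeR over the 4 mice. Adam10, which sheds ephrins, fell in the GFP mice (-0.44 ± 0.07, adjusted p = 0.0187) and was at 0.01 ± 0.07 in the mCh mice. The difference between the lines did not pass (adjusted p = 0.165).

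**Figure D5:**
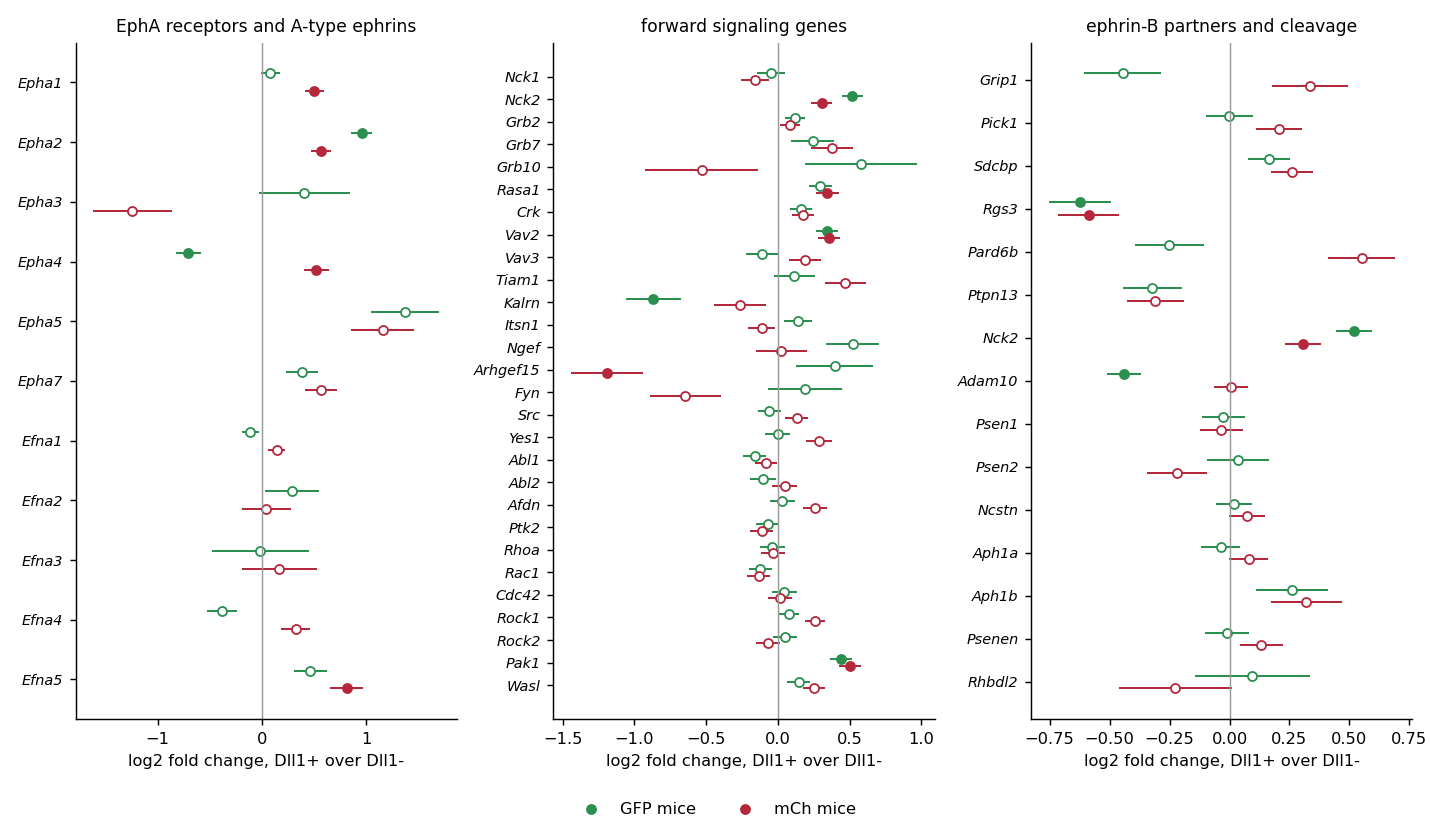
Log2 fold change of Dll1+ over Dll1- cells with its SE for the tested genes of the EphA and A-type ephrin lists (left), the forward signaling list (middle) and the ephrin-B partner and cleavage lists (right), in GFP mice (green) and mCh mice (red), with filled points at an adjusted p under 0.05. Epha2, Nck2, Vav2 and Pak1 are filled on the right of 0 in both lines, Rgs3 on the left in both, and Epha4 on opposite sides.

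Between the reporter lines, 3 forward genes were higher and 6 lower in the Dll1- cells of the mCh mice, and 1 was higher and 3 lower in Dll1+ cells, where 36.6% and 30.6% of all genes passed, so the list did not exceed the background in either fraction. Those with the lowest p in Dll1- cells were Afdn (-1.11 ± 0.15, adjusted p = 0.00282), which encodes the junction protein afadin, the kinase gene Yes1 (-0.86 ± 0.13, adjusted p = 0.00373), Rock1 (-0.81 ± 0.14, adjusted p = 0.00595) and Arhgef15 (1.95 ± 0.40, adjusted p = 0.0107). In Dll1+ cells, Afdn (-0.87 ± 0.15, adjusted p = 0.00826), Yes1 (-0.58 ± 0.13, adjusted p = 0.0174) and Rock1 (-0.63 ± 0.14, adjusted p = 0.0179) were again lower and Rac1 was higher (0.46 ± 0.10, adjusted p = 0.0194). Epha3, at 2.97 ± 0.50 in Dll1- cells, was the EphA receptor called higher, and Efna5 was lower there (-0.61 ± 0.18). In Dll1+ cells Efna3 was higher (1.39 ± 0.40, adjusted p = 0.0387). Of the protease genes, Psenen, a gamma-secretase subunit, was higher in both fractions (0.58 ± 0.12 and 0.72 ± 0.12) and Adam10 lower in Dll1- cells (-0.50 ± 0.12).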

How the data were processed

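RNA of sorted Dll1+ and Dll1- tumor cells from 4 mice was sequenced from a stranded library kit. The authors mapped reads with salmon to GENCODE M20 transcripts (GRCm38.p6), used tximport for gene-level sums and deposited these as estimated counts, in whole numbers without normalization. The strand setting of the counting is not given in the sources used here.

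The estimated counts were used as deposited in edgeR 4.0.16 (R 4.3.3) with TMM normalization, filterByExpr on Dll1 status and the robust quasi-likelihood F test. The model held Dll1 status and the mouse, as in the study, or a Dll1+ effect per reporter and the mouse. Mouse is nested in reporter, so reporter lines were compared by group means. P values were adjusted over 18322 genes (Benjamini-Hochberg, threshold 0.05). SE is the log2 fold change over the root of F. Log2 CPM used a prior count of 2. Total counts of 27301396 to 123907626 put the level of 3 counts at 0.0240 to 0.105 CPM, for counting error only. Pairs come from the mouse named in the labels, and deviations of paired libraries correlated at -0.05 in GFP and 0.55 in mCh mice. The effects per reporter line and the reporter comparisons used an estimate of spread shared over all 8 libraries. Their SEs and p values are therefore not the spread between the 2 mice of a line.

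Alternatives were RLE size factors, DESeq2 1.42.0, other count filters, no mouse block, each mouse left out, fits of 1 reporter or fraction alone and limma 3.58.1 with mouse as a random block. The fits were also run on simulated counts. For the reporter comparison these held no correlation between libraries of the same mouse, so they cannot check that comparison for it. Members and lists were chosen with earlier results of these data known. All members are named, pathway genes where they passed (at most 4 per list and comparison, by p) and the 3 genes most like each member. A few such genes are not reported here, so 2 are given for Efnb2. Coordinates are from GENCODE and promoter sequences from RefSeq, where 7 members had an entry, and exon lengths are the union of exons. Epha4 and Rgs3 levels, and the genes of the closing observations, were chosen after their values were seen.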

Additional observations from a re-analysis of the deposited data

How the results depend on the processing

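Of the 8 members, 4 were called in the 4-mouse comparison of the fractions, where 2568 of all genes were called. DESeq2 called 5 members (Ephb4 added) and 4362 of all genes. Without the mouse as a block, 2 members (Ephb3 and Efnb2 lost, adjusted p = 0.0508 and 0.185) and 1207 of all genes were called. With a mouse left out, 1 to 3 members and 398 to 2377 of all genes were called. The GFP libraries alone gave 3 members and 2387 of all genes. The mCh libraries alone gave 0 members, where edgeR called 0 of all genes and 5144 had an unadjusted p under 0.05. The fits of 1 reporter line alone over the 4-mouse result were chosen after seeing the data. In the GFP mice, 3 members were called, 1 without the block and 0 to 3 with a mouse left out. In the mCh mice, 3 were called, 4 with either other filter, 1 without the block, 1 to 2 with a mouse left out and 0 with that line fitted alone. Between the lines, 3 members were called in each fraction, and 0 to 3 in Dll1- and 0 to 4 in Dll1+ cells with a mouse left out. With a fraction fitted alone, Ephb6 was lost in Dll1- cells (2 called, adjusted p = 0.0561), where 4844 of all genes were called against 6701. Without a filter Efnb1 was added in Dll1+ cells (4 called, adjusted p = 0.0188), where 5766 of all genes were called against 5612. With mouse as a random block in limma, 2 were called in each fraction, as Ephb1 was lost (adjusted p = 0.0880 and 0.0588). Ephb1 was not tested with at least 10 counts in every library. With the longest transcript as length, the receptor to ligand ratio was 6.42. The random block changed no other call. Dropping the mouse block lost Ephb2 and Efnb2 in the GFP mice (edgeR, adjusted p = 0.105 and 0.319). In the mCh mice it lost Ephb2 and Ephb3 (adjusted p = 0.106 and 0.0945). Over all genes, edgeR called 1673 in the GFP mice and 274 there without the block. In the mCh mice it called 2154, with 212 without the block, 3637 without a filter and 2394 with at least 10 counts. The causes were not tested.

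Of all values under these alternatives, 24 changed sign, each of a member with no call. With a mouse left out, the log2 fold change of Dll1+ over Dll1- for Efnb1 ran from -0.15 to 0.11 over the 4 mice (0.10 in the mCh libraries alone), from -0.44 to 0.074 in the GFP mice and from -0.12 to 0.32 in the mCh mice, and that of Ephb1 from -0.091 to 1.53 in the mCh mice. The GFP minus mCh difference ran from -0.54 to 1.08 for Ephb1, -0.61 to 0.069 for Ephb2, -0.040 to 0.18 for Ephb4, -0.043 to 0.033 for Ephb6 and -0.46 to 0.057 for Efnb3, and that of Ephb6 was 0.0054 with RLE, 0.0054 with DESeq2 and 0.0032 without a filter. For mCh over GFP it ran from -0.62 to 0.53 for Efnb2 (-0.26 with the random block) and -0.46 to 0.21 for Efnb3 in Dll1- cells, and from -0.14 to 0.083 for Ephb3, -0.17 to 0.060 for Ephb4 and -0.10 to 0.28 for Efnb3 in Dll1+ cells.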

Other observations

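The Ephb6 difference between Dll1+ and Dll1- cells was nearly the same in each mouse. Its log2 differences had an SD of 0.028 over the 4 mice around a mean of 0.87, and 0.458% of tested genes had an SD as small. At 849 to 4792 counts per library, counting error alone adds to such differences. An SD this small therefore does not measure how constant the effect is. The SD was 0.11 for Ephb4, 0.20 for Ephb3, 0.26 for Efnb3, 0.33 for Efnb1, 0.34 for Ephb2 and Efnb2 and 0.71 for Ephb1.

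Of the 53 tested pathway genes outside the family, 7 were lower in the Dll1+ library of both GFP mice and higher in that of both mCh mice (Epha4, Efna1, Efna4, Vav3, Grip1, Pard6b and Adam10), as were 5.53% of all genes tested. The reverse held for 3 of them (Epha3, Arhgef15 and Fyn) and for 5.34% of all genes tested. Both counts go by sign alone, whatever the size of the difference. Adam10 was nearly level in mCh mice 1 and 2, at log2 differences of 0.009 and 0.003. Vav3 was at 0.03 in mCh mouse 1 and Efna1 at -0.05 in GFP mouse 2. The difference between the lines did not pass in edgeR for any of these 10 genes, with an adjusted p of 0.0762 for Epha4 and 0.165 to 0.501 for the others.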
